A study of Mus musculus with 175 samples.

Results

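The genes described here are the 7 members of the fetal LIN28B, HMGA2 and IGF2BP program: Lin28b, Hmga1, Hmga2, Igf2bp1, Igf2bp2, Igf2bp3 and Arid3a. They were taken by symbol from the deposited gene annotation, and all 7 were found among its 49585 mouse features. The study sorted single hematopoietic progenitors from mouse fetal liver at 14.5 days post fertilization and sequenced each cell by a Smart-Seq2 protocol. The cells came from embryos of a C57BL/6 and ICR cross heterozygous for a Runx1 reporter, in which human CD4 reports activity of the proximal (P2) promoter. The protocol text names a second reporter as P1-GFP, while the genotype label names it P2-GFP, and all cells compared carried the same alleles.

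The 4 populations were the P2- and P2+ MEPs and the P2- and P2+ CMPs. MEPs are megakaryocyte-erythroid progenitors, sorted as lineage-negative SCA1- C-KIT+ cells without CD34, and CMPs are common myeloid progenitors, sorted the same way but with CD34. Both gates required CD150 and excluded CD41. The titles of the MEPs give the reporter as neg or pos and those of the CMPs as low or high, written here as P2- and P2+. After the quality filter, 172 of 175 cells remained, of which 56 were P2- MEPs, 47 were P2+ MEPs, 27 were P2- CMPs and 42 were P2+ CMPs. One P2- CMP carries an MEP subtype label that goes against its title. The livers of several embryos from pooled litters were combined before sorting, so each population was 1 sample without replicates. No test between populations was therefore possible, and every interval given below covers counting error only and not the spread between animals.

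LIN28B is an RNA-binding protein that binds the precursors of the let-7 microRNAs and blocks their maturation. It is known as a marker and regulator of fetal as opposed to adult blood stem and progenitor cells. Mature let-7 represses messenger RNAs that match its seed, and several of the best known targets belong to this set: HMGA2, a chromatin protein that binds the minor groove of AT-rich DNA, the IGF2BP proteins, which bind messenger RNAs and protect them, and ARID3A, a DNA-binding protein linked to fetal lymphoid output. HMGA1 is the close relative of HMGA2, and LIN28B itself also carries let-7 matches.

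The mature let-7 sequences are shown because several of these genes are known let-7 targets, and 5 of the 10 5p-arm sequences in RefSeq (GRCm38.p6) are given here with the seed, bases 2 to 8, in capitals.
mmu-let-7a-5p: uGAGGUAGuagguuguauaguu
mmu-let-7e-5p: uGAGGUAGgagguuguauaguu
mmu-let-7g-5p: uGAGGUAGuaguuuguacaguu
mmu-let-7i-5p: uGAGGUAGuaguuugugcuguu
mmu-let-7j: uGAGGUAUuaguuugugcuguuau
The same seed was found in 9 of the 10 sequences, and let-7j was the exception. The reverse complement of that seed, CTACCTC, was searched on the transcript strand of the annotated 3′UTRs (GENCODE, GRCm38). For each gene the complete coding transcript with the longest 3′UTR was taken.

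Since the set was grouped around known let-7 targets, matches in its 3′UTRs are a description and not independent of membership. All 7 genes held at least 1 match, 17 in all, and 8 of the 17 extended to CTACCTCA, the match of 8 bases. Of all 21027 genes searched, 9.02% held at least 1 match. Each window below gives 23 bases of the transcript, 5′ to 3′, with the match in capitals and GRCm38 positions.
Lin28b, first of 4 (chr10:45381022-45381044, minus strand): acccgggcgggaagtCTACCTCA
Hmga1, 1 of 1 (chr17:27563277-27563299, plus strand): tcctctgttcacaaaCTACCTCt
Hmga2, first of 4 (chr10:120364224-120364246, minus strand): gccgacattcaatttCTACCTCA
Igf2bp1, first of 4 (chr11:95961778-95961800, minus strand): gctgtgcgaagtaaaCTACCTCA
Igf2bp2, 1 of 1 (chr16:22059473-22059495, minus strand): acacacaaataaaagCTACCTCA
Igf2bp3, 1 of 1 (chr6:49086787-49086809, minus strand): tgcatttttactcaaCTACCTCA
Arid3a, first of 2 (chr10:79953895-79953917, plus strand): aaggcaagtttctttCTACCTCA
A match is a description of letters and not a measured binding site.

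Lin28b, Hmga2 and Igf2bp1 each held 4 matches, Arid3a held 2, and Hmga1, Igf2bp2 and Igf2bp3 held 1 each. Longer 3′UTRs can hold more matches, so each gene was set beside 3′UTRs within 10% of its own length. For Hmga2, with 3014 bases, 0.180% of 1114 such 3′UTRs, its own included, held as many matches or more. The share was 0.494% for Lin28b (4445 bases, 607 3′UTRs), 0.412% for Igf2bp1 (6337 bases) and 2.04% for Arid3a (3082 bases, 1076 3′UTRs). A single match was common at the length of Igf2bp2 (11.3%), Igf2bp3 (14.3%) and Hmga1 (8.46%). The first match of Lin28b began 36 bases after the stop codon and that of Hmga2 58 bases after it. The shorter letters TACCTCA, not preceded by the C that completes the longer match, occurred a further 8 times, 3 of them in Hmga2.

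**Figure D1:**
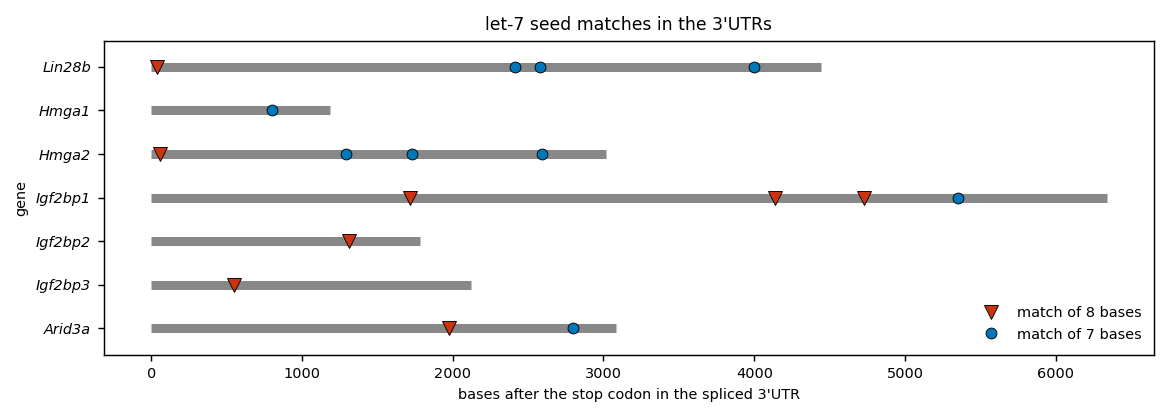
Map of the 7 annotated 3′UTRs to scale, with the x axis in bases after the stop codon and 1 gene per line; red triangles are matches of 8 bases and blue circles are matches of 7 bases to the let-7 seed. Lin28b, Hmga2 and Igf2bp1 carry 4 matches each, and the 3 matches of 8 bases in Igf2bp1 begin 1715, 4136 and 4730 bases after its stop codon.

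Mature let-7 is not captured by this assay, which reads polyadenylated RNA. The 11 let-7 hairpin features of the annotation drew 3, 22, 3 and 40 reads in the P2- and P2+ MEPs and the P2- and P2+ CMPs, in 8 cells in all. The level of let-7 was therefore not measured.

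Reads assigned to mouse genes ranged from 295064 to 1540631 per cell, with population medians from 520540 to 804632. No pair of cells had identical counts. Cd34, which the gates separate, reached 0.0327 CPM (reads of the gene per 1000000 reads on mouse genes) in the P2- MEPs, 13.0 in the P2+ MEPs, 274.3 in the P2- CMPs and 541 in the P2+ CMPs. The summed level of 13 erythroid marker genes went down in the order P2- MEP (2377 CPM), P2+ MEP (1531), P2- CMP (693) and P2+ CMP (358.6). Single markers went the other way by 2-fold. They were Car1 in P2+ over P2- MEPs (log2 ratio 1.44), and Hba-a1 (2.01) and Hemgn (1.02) in P2+ over P2- CMPs. The 9 stem and multipotent markers summed to 314.3, 393, 1036 and 1294 CPM and the 10 granulocyte and monocyte markers to 16.3, 75.9, 460 and 724 CPM in the same order. The 10 megakaryocytic markers summed to 74.6, 605, 597 and 702 CPM, and Pf4 and Gp9 had no read in the P2- MEPs. Gp1bb had none there either, but Sept5 overlaps 91.1% of its exon bases, where reads could not be assigned. Against these sums, Vwf was lower in P2+ than in the P2- CMPs (log2 ratio -4.30). Gp1ba was lower in the P2- CMPs than in the P2- MEPs (-4.38). The 7 endothelial markers summed to 6.37, 40.2, 88.5 and 113 CPM. Lineage markers thus differed between the same populations across which the members are compared below, and their part in those values was not tested. The 10 hepatocyte markers summed to 15.2, 21.4, 42.4 and 36.01 CPM in the order above, and Serpina1a and Ahsg had no read in any population. In the P2- CMPs over P2- MEPs Dlk1 (log2 ratio 2.44), Alb (1.51) and Afp (1.104) were higher by 2-fold and none was lower. Ttr was read in 1 P2- MEP and 3 P2+ MEPs and in no CMP. Alb was read in 6 P2- MEPs and 1 P2- CMP and listed at 0 in both P2+ populations, and Afp was read in 3 to 6 cells of each population. Of the 8 macrophage markers, which summed to 1.27, 10.2, 6.22 and 6.27 CPM in the populations in the order above, Adgre1, C1qa, C1qb and C1qc had no read. Cd68 gave most of that sum and was higher by 2-fold in P2+ over P2- MEPs (log2 ratio 2.89) and in the P2- CMPs over P2- MEPs (2.39), from 4 to 7 cells with reads in each population. The 6 mast cell and basophil markers summed to 0.327, 2.69, 72.8 and 34.2 CPM, nearly all from Cpa3, which was higher in CMPs among P2- cells (7.80) and among P2+ cells (3.67), while Prss34, Gzmb, Ms4a2 and Fcer1a had no read. The lymphoid and stromal markers summed to at most 3.22 and 8.07 CPM. The 10 cell division genes summed to 3636, 3244, 3161 and 3001 CPM.

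Gene positions below are the GRCm38 spans of the annotation. Lin28b, on chr10:45376620-45486395, was read in all 4 populations and was lowest in the P2+ CMPs. Its pooled level, the summed reads of its cells scaled to 1000000, was 61.0 CPM in the P2- MEPs (95% exact Poisson interval 58.2 to 63.8), 51.5 in the P2+ MEPs (49.1 to 54.1), 65.2 in the P2- CMPs (61.6 to 69.0) and 23.2 in the P2+ CMPs (21.6 to 24.8). The intervals of the P2- CMPs and P2- MEPs overlapped, so these neighbors in the order do not differ beyond counting error, while P2+ CMPs stood below the other populations. Cells ranged from 0 to 266.5 CPM around a median of 45.6 in the P2- MEPs, from 0 to 269.9 (median 31.4) in the P2+ MEPs, from 0 to 266.9 (median 49.6) in the P2- CMPs and from 0 to 125 (median 2.80) in the P2+ CMPs. The cells of all populations overlapped, and each population included cells without a Lin28b read.

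After every cell was thinned to 100000 reads, Lin28b was read in 45 of the 56 P2- MEPs (80.4%, 95% exact binomial interval 67.6 to 89.8), 30 of the 47 P2+ MEPs (63.8%), 15 of the 27 P2- CMPs (55.6%) and 19 of the 42 P2+ CMPs (45.2%, 29.8 to 61.3). At full depth the counts were 48, 34, 17 and 25 cells. With at least 5 reads in place of 1 the shares were 50%, 40.4%, 48.1% and 21.4% in the same order. The P2+ CMPs had the lowest share at either limit, while the gap between the P2- MEPs and P2- CMPs was small at 5 reads. A pooled level cannot separate fewer cells with the transcript from less transcript per cell, which is why the shares are given beside it. The paralog Lin28a, which also blocks let-7 maturation, had 1 read in 1 P2+ MEP and none in the other populations.

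Hmga2, on chr10:120361275-120476469, was higher in both CMP populations than in either MEP population. Its pooled level was 49.96 CPM in the P2- MEPs (47.5 to 52.5), 68.3 in the P2+ MEPs (65.5 to 71.3), 215.1 in the P2- CMPs (208.4 to 221.9) and 187 in the P2+ CMPs (182 to 191). No intervals overlapped. The median over cells was 27.3 CPM in the P2- MEPs (0 to 291.2), 37.5 in the P2+ MEPs (0 to 406), 167 in the P2- CMPs (0 to 619.6) and 189 in the P2+ CMPs (27.1 to 429). Every P2+ CMP had Hmga2 reads, so no cell of that population reached the 0 seen in part of the MEPs, although the ranges of all populations overlapped. In thinned cells Hmga2 was read in 36 of the 56 P2- MEPs (64.3%), 30 of the 47 P2+ MEPs (63.8%), 25 of the 27 P2- CMPs (92.6%) and 42 of the 42 P2+ CMPs (100%, 91.6 to 100).

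Hmga1, on chr17:27556497-27563674, was read in every cell and differed little between populations. Its pooled level was 274.3 CPM in the P2- MEPs (268.5 to 280.3), 253.9 in the P2+ MEPs (248.4 to 259.5), 250.3 in the P2- CMPs (243.2 to 257.7) and 301.7 in the P2+ CMPs (296.05 to 307.4). The medians over cells lay between 255.4 and 273.4 CPM, and the lowest cell, a P2+ CMP, had 55.8 CPM. P2+ MEPs and P2- CMPs did not differ beyond counting error. Part of the Hmga1 transcript sequence is not unique in the annotation, since 48.4% of its windows of 70 bases also occur in other genes. Reads from that part could not be assigned, and the value of Hmga1 is uncertain.

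**Figure D2:**
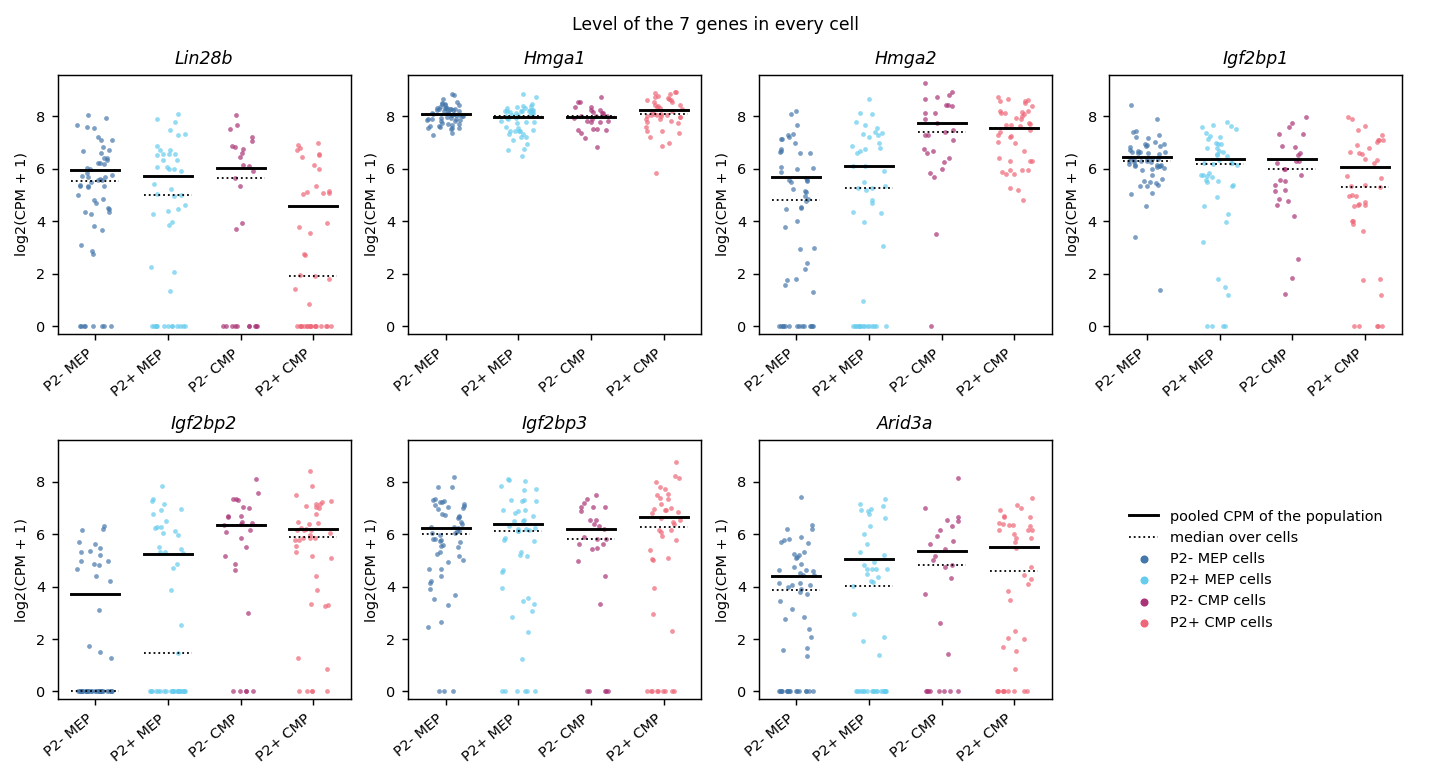
Level of each gene in every cell as log2(CPM + 1) on the y axis, by population on the x axis; each point is a cell, the solid line is the pooled CPM and the dotted line the median over cells. Hmga2 and Igf2bp2 sit higher in both CMP populations, the median of Lin28b is 2.80 CPM in the P2+ CMPs, and Hmga1 is present in every cell.

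Igf2bp2, on chr16:22059009-22163299, spanned the widest fold range of the 7 genes, 6.67-fold between its highest and lowest population. The IGF2BP proteins bind messenger RNAs and affect their stability, localization and translation, and Igf2bp2 is the one that persists in many adult tissues. Its pooled level was 12.2 CPM in the P2- MEPs (11.01 to 13.5), 36.6 in the P2+ MEPs (34.5 to 38.8), 81.5 in the P2- CMPs (77.5 to 85.8) and 73.0 in the P2+ CMPs (70.2 to 75.8). The order of the levels was P2- MEP, P2+ MEP, P2+ CMP and P2- CMP, with no overlap of the counting intervals. The median P2- MEP had 0 CPM (highest cell 78.6), the median P2+ MEP 1.73 (highest 225.95), the median P2- CMP 81.4 (highest 274.3) and the median P2+ CMP 58.9 (highest 341.3). In thinned cells the gene was read in 18 of the 56 P2- MEPs (32.1%, 20.3 to 46.0), 21 of the 47 P2+ MEPs (44.7%, 30.2 to 59.9), 21 of the 27 P2- CMPs (77.8%) and 35 of the 42 P2+ CMPs (83.3%). All populations included cells at 0, and the shares of the MEP populations overlapped in their intervals while their pooled levels did not.

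Igf2bp1 and Igf2bp3, the paralogs best known as fetal, did not share this pattern. Igf2bp1, on chr11:95957163-96005940, had a pooled level of 87.01 CPM in the P2- MEPs (83.7 to 90.4), 82.2 in the P2+ MEPs (79.1 to 85.4), 82.9 in the P2- CMPs (78.8 to 87.2) and 65.6 in the P2+ CMPs (63.0 to 68.3). The first 3 populations overlapped in their intervals and P2+ CMPs stood below them. In thinned cells it was read in 55 of the 56 P2- MEPs, 39 of the 47 P2+ MEPs, 23 of the 27 P2- CMPs and 33 of the 42 P2+ CMPs. The medians over cells were 77.2, 72.0, 62.8 and 39.2 CPM in the same order, and single cells ranged from 0 to 349.6 CPM.

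Igf2bp3, on chr6:49085223-49214957, had its highest pooled level in the P2+ CMPs. It reached 74.8 CPM in the P2- MEPs (71.8 to 77.9), 83.0 in the P2+ MEPs (79.9 to 86.3), 71.6 in the P2- CMPs (67.7 to 75.5) and 99.1 in the P2+ CMPs (95.9 to 102). The P2- MEPs and P2- CMPs overlapped in their intervals. In thinned cells it was read in 51 of the 56 P2- MEPs, 36 of the 47 P2+ MEPs, 22 of the 27 P2- CMPs and 31 of the 42 P2+ CMPs, so the population with the highest pooled level had the lowest share of cells with a read (73.8%, 58.0 to 86.1). The highest P2+ CMP had 434 CPM and the median 77.1 CPM, against 289.2 and 62.9 CPM in the P2- MEPs. Malsu1 overlaps 18.7% of the exon bases of Igf2bp3 on the opposite strand, and the reads there cannot be assigned to either gene by unstranded counting.

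Arid3a, on chr10:79927043-79955018, was lowest in the P2- MEPs and highest in the P2+ CMPs. Its pooled level was 20.2 CPM in the P2- MEPs (18.6 to 21.8), 31.9 in the P2+ MEPs (30.0 to 34.0), 40.5 in the P2- CMPs (37.7 to 43.5) and 44.9 in the P2+ CMPs (42.8 to 47.2). The CMP populations overlapped in their intervals with all cells. The medians over cells were 13.5, 15.3, 27.3 and 23.2 CPM, and every population included cells at 0. A single P2- CMP with 280.7 CPM gave 24.4% of the reads of that population. Without the highest cell of each population the P2- CMPs had 31.8 CPM (29.2 to 34.5) and the P2+ MEPs 30.1 (28.2 to 32.1), so that these populations no longer differed beyond counting error. The P2+ CMPs then had 42.5 CPM (40.4 to 44.7), above the interval of the P2- CMPs. In thinned cells the gene was read in 30 of the 56 P2- MEPs, 23 of the 47 P2+ MEPs, 18 of the 27 P2- CMPs and 26 of the 42 P2+ CMPs. The paralog Arid3c had no read, while Arid3b reached 7.19, 8.49, 23.0 and 12.3 CPM in the P2- and P2+ MEPs and the P2- and P2+ CMPs, with a median cell at 0 in each.

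Levels of different genes were compared per kilobase of annotated exon, since longer transcripts yield more reads. On the scale of pooled CPM per kilobase, Hmga1 was the highest in every population (118 to 142), and Hmga2 came next in the CMPs (31.8 in P2- and 27.6 in P2+). In P2- MEPs the next were Igf2bp3 (9.17), Igf2bp1 (8.99), Hmga2 (7.38) and Lin28b (6.73), with Arid3a (3.62) and Igf2bp2 (1.65) last. In P2+ CMPs Lin28b was the lowest of the 7 (2.56), below Igf2bp1 (6.77), Arid3a (8.08), Igf2bp2 (9.86) and Igf2bp3 (12.1).

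**Figure D3:**
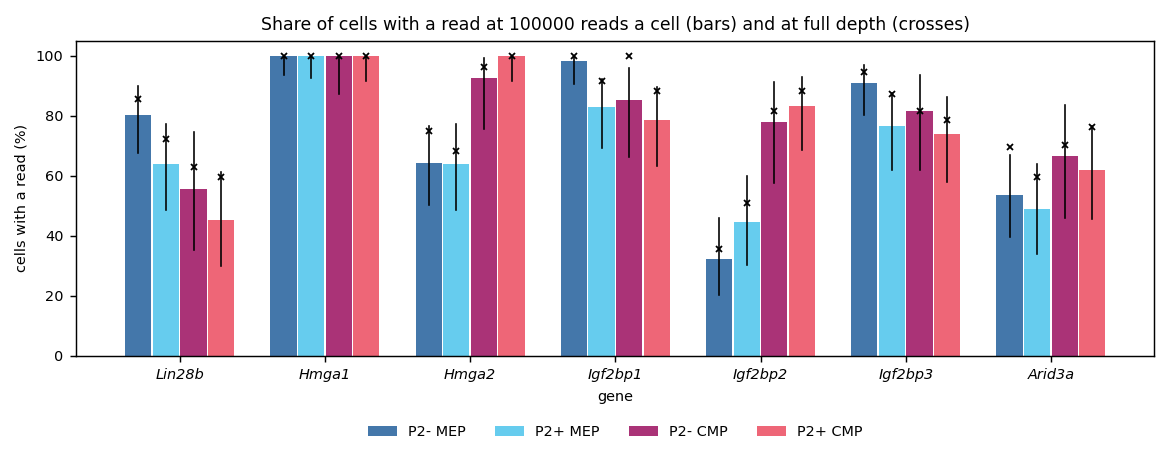
Share of cells with at least 1 read of each gene (y axis, percent) by gene and population; bars are cells thinned to 100000 reads with exact 95% binomial intervals as black lines, and crosses are the same cells at full depth. Hmga2 and Igf2bp2 are read in a larger share of CMPs than of MEPs, and Lin28b in 80.4% of P2- MEPs and 45.2% of P2+ CMPs.

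The study sequenced P2+ and P2- cells of each gate to look for surface markers that follow the reporter. In MEPs, only Igf2bp2 passed a 2-fold difference of pooled level, being 2.99-fold higher in P2+ than in the P2- MEPs (log2 ratio 1.58, 95% exact binomial interval 1.41 to 1.75). Over all genes with at least 100 reads, 17% were higher by 2-fold in this comparison and 7.65% lower. The count of 1 of 7 genes higher and 0 lower is near that background. Arid3a (log2 ratio 0.66, 0.52 to 0.81) and Hmga2 (0.45, 0.36 to 0.55) were higher in the P2+ MEPs by less than 2-fold, Lin28b was lower (-0.24, -0.34 to -0.15), and Igf2bp3, Igf2bp1 and Hmga1 were within 0.16 of 0. The median of the 7 genes was 0.15, beside 0.06 over all genes.

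In CMPs, Lin28b was the only member past 2-fold, and it was 2.82-fold lower in P2+ than in the P2- CMPs (log2 ratio -1.49, -1.62 to -1.37). Lower by 2-fold were 11% of all genes and higher 12%, so that 1 of 7 lower and 0 of 7 higher is again near the background. Without the cell of highest Lin28b level in each population the log2 ratio was -1.42, and without the CMP of conflicting label it was -1.38. Igf2bp3 was higher in the P2+ CMPs (0.47, 0.38 to 0.56) and Hmga1 was too (0.27, 0.22 to 0.32), while Igf2bp1 (-0.34, -0.43 to -0.24), Hmga2 (-0.20, -0.26 to -0.15) and Igf2bp2 (-0.16, -0.25 to -0.07) were lower. The log2 ratio of Arid3a was 0.15 and was -0.0044 when every cell was weighted equally. The median of the 7 genes was -0.16, beside -0.02 over all genes.

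CMPs were then set against MEPs at the same reporter state. These comparisons use the same populations as those above, so that the values are not independent of them. Among P2- cells, 3 members were higher by 2-fold in CMPs, where 24.2% of all genes were, and none was lower, where 10.5% of all genes were. They were Igf2bp2 (6.67-fold, log2 ratio 2.74, 2.57 to 2.91), Hmga2 (4.30-fold, 2.11, 2.02 to 2.19) and Arid3a (2.01-fold, 1.01, 0.85 to 1.16). Arid3a stood at the threshold and was below it (0.78) without the cell of highest level in each population. Lin28b (0.10, -0.01 to 0.20), Igf2bp1 (-0.07, -0.16 to 0.02) and Igf2bp3 (-0.06, -0.16 to 0.03) did not differ beyond counting error, and Hmga1 was lower in CMPs (-0.13, -0.18 to -0.08). The median of the 7 genes was 0.10, beside 0.12 over all genes.

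Among P2+ cells, Hmga2 was 2.73-fold higher in CMPs (log2 ratio 1.45, 1.38 to 1.52) and Lin28b 2.22-fold lower (-1.15, -1.28 to -1.03). Here 18.9% of all genes were higher by 2-fold and 11.8% lower. Igf2bp2 was just under the threshold (1.99-fold, log2 ratio 0.996, 0.896 to 1.097). Arid3a (0.49), Igf2bp3 (0.26) and Hmga1 (0.25) were higher in CMPs and Igf2bp1 (-0.33) lower, each beyond counting error. The median of the 7 genes was 0.26, beside 0.02 over all genes. Lin28b thus had near-equal pooled levels in the P2- CMPs and P2- MEPs and a lower level in the P2+ CMPs than in the P2+ MEPs, whereas Hmga2 was higher in CMPs at both reporter states. Whether the difference between the reporter states exceeds the spread between animals could not be tested.

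**Figure D4:**
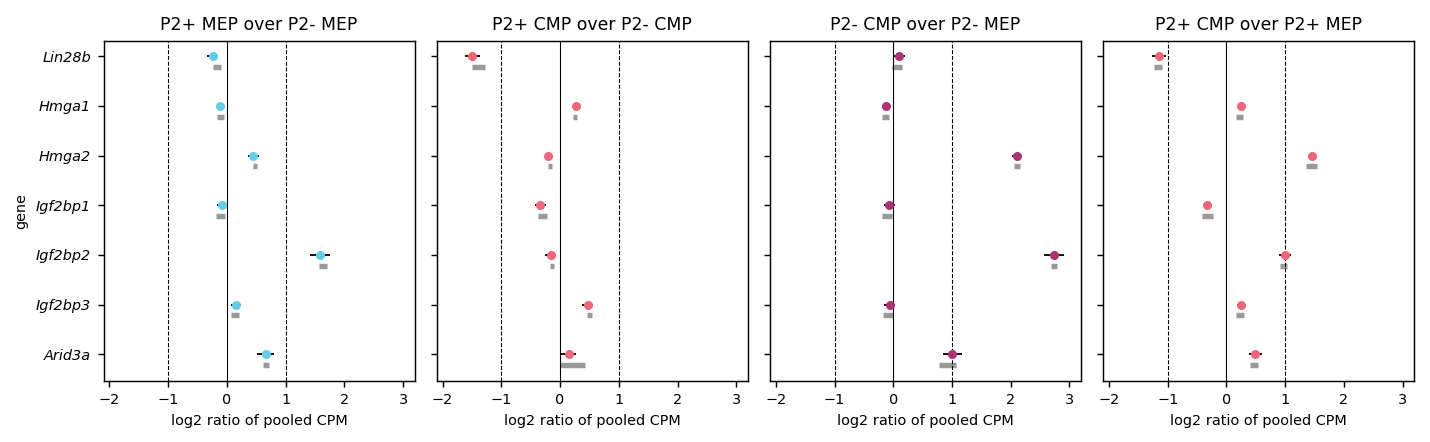
Log2 ratios of pooled CPM (x axis) for the 7 genes (y axis) in the 4 comparisons; points with black lines are values with 95% exact binomial intervals, gray bars give the range over 6 alternative settings, and dashed lines mark 2-fold. Igf2bp2 and Hmga2 lie right of the dashed line among P2- cells, and Lin28b lies left of it in both comparisons that have P2+ CMPs first.

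All 7 genes were seldom read together in 1 cell. At 100000 reads per cell the median number of the 7 genes with a read was 5 in the P2- MEPs, P2+ MEPs and P2+ CMPs and 6 in the P2- CMPs. All 7 were read in 4 of the 56 P2- MEPs (7.14%), 3 of the 47 P2+ MEPs (6.38%), 5 of the 27 P2- CMPs (18.5%) and 7 of the 42 P2+ CMPs (16.7%). Lin28b and Hmga2 were both missing in 4 P2- MEPs, 5 P2+ MEPs, 1 P2- CMP and 0 P2+ CMPs. Hmga2 without Lin28b was seen in 7 of the 56 P2- MEPs, 12 of the 47 P2+ MEPs, 11 of the 27 P2- CMPs and 23 of the 42 P2+ CMPs. The reverse, Lin28b without Hmga2, was seen in 16, 12, 1 and 0 cells of the same populations. At least 1 of the 3 Igf2bp genes was read in every P2- MEP and every P2- CMP, and none of them was read in 2 P2+ MEPs and 1 P2+ CMP.

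Over all 172 cells, Pearson's r of log2(CPM + 1) between the 21 pairs of members ranged from -0.17 to 0.37 with a median of -0.03. The highest was that of Hmga2 with Igf2bp2 (0.37), which within populations was 0.09 in the P2- MEPs, 0.31 in the P2+ MEPs, -0.11 in the P2- CMPs and 0.13 in the P2+ CMPs. Within single populations the values ranged from -0.39, for Lin28b with Arid3a in the P2+ MEPs, to 0.41, for Igf2bp1 with Igf2bp3 in the same population. Over all cells these pairs had -0.10 and 0.13, and Lin28b with Hmga2 had -0.14. These values describe cells of pooled animals that share population differences and hold many zeros, and weak values in sparse counts are no finding.

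The genes whose levels were most like those of each member were taken from 9238 genes read in at least 25% of the cells, by Pearson's r over the same 172 cells. Among the 5 highest for Hmga2 were Igfbp4 (0.59), Cd93 (0.53), Gm8292 (0.52) and Coro1a (0.51). For Igf2bp2 the 5 highest were Ptpn18 (0.54), Fxyd5 (0.49), Angpt1 (0.49), Coro1a (0.49) and Adgrg1 (0.49). All of these were higher in CMPs than in MEPs, as were both members, and all had lower values after centering within populations. Igfbp4 then had 0.38 with Hmga2, Gm8292 and Coro1a 0.22 each and Cd93 0.16. With Igf2bp2, Ptpn18 had 0.30, Adgrg1 0.24, Angpt1 and Fxyd5 0.20 each and Coro1a 0.17. Among the 5 highest for Hmga1 were Ewsr1 (0.32), Smarcd2 (0.31), Rdh14 (0.30) and Creld2 (0.30). For Lin28b the 5 highest were Slc7a5 (0.34), Usp7 (0.33), Anp32b (0.33), Pdcd11 (0.33) and Golm1 (0.32). After centering these were 0.24, 0.27, 0.27, 0.28 and 0.21. Igf2bp1 was most like Nsun5 (0.37), Icam2 (0.36), Timm44 (0.35), Mrps7 (0.34) and Cenpv (0.34). Igf2bp3 was most like Tmem251 (0.32), Tex30 (0.30), Atad3a (0.28), Nup93 (0.28) and Bri3bp (0.28). Arid3a was most like Grk2 (0.37), Rbms2 (0.30), Phf14 (0.30), H2afy (0.30) and Plcg1 (0.30). The centered values of the genes named for Hmga1, Igf2bp1, Igf2bp3 and Arid3a lay between 0.26, for Plcg1, and 0.35, for Grk2.

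Of 15 genes of let-7 processing and the LIN28 machinery, 13 had at least 100 reads. Zcchc11, which encodes the uridylyltransferase that acts with LIN28A on let-7 precursors, was higher by 2-fold in P2+ than in the P2- MEPs (48.4 against 22.3 CPM, log2 ratio 1.11, 0.94 without the highest cells) and in the P2- CMPs than in the P2- MEPs (46.0 CPM, 1.04). None of the 13 passed 2-fold between P2+ and P2- CMPs, where Zcchc11 had a log2 ratio of -0.90. Drosha, the nuclease that cuts primary microRNAs, was lower in the P2+ CMPs than in the P2+ MEPs (34.6 against 94.6 CPM, -1.45), and Ago3, an Argonaute protein, was higher (18.7 against 9.06 CPM, 1.05, 0.82 with equal weight for every cell). The list medians were 0.14, -0.35, 0.21 and -0.25 in P2+ over P2- MEPs, P2+ over P2- CMPs, P2- CMPs over P2- MEPs and P2+ CMPs over P2+ MEPs. The medians of all genes were 0.06, -0.02, 0.12 and 0.02.

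Of 16 other genes known as let-7 targets, all with at least 100 reads, 6 were higher by 2-fold in the P2- CMPs than in the P2- MEPs. In this annotation 11 of the 16 held a seed match in the 3′UTR. Mycn, a growth-promoting transcription factor, had no read in 56 P2- MEPs and 10.0, 103 and 185 CPM in the P2+ MEPs, P2- CMPs and P2+ CMPs. With the P2- MEPs set to 3 pooled reads, it was at least 1048-fold higher in the P2- CMPs, and it was read in 10 of the 47 P2+ MEPs, 18 of the 27 P2- CMPs and 40 of the 42 P2+ CMPs at full depth. Ccnd1, the cyclin of the G1 phase, was higher in CMPs among P2- cells (50.8 against 5.82 CPM, log2 ratio 3.13) and among P2+ cells (48.4 against 11.02 CPM, 2.14), with 23.4% of its exon bases overlapped by another gene. Neither Mycn nor Ccnd1 held CTACCTC in its 3′UTR, while the shorter letters TACCTCA occurred 2 times in that of Mycn and 1 time in that of Ccnd1. Arid3b (1.68) and Cbx2 (1.51), a Polycomb protein, were also higher in the P2- CMPs, and 1 P2- MEP gave 59.1% of the Arid3b reads of its population, so that the value of Arid3b was 2.78 without the highest cells.

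Among the targets on the other side were Irs2 and Cdc34. Irs2, an adaptor of insulin and IGF receptors, had 21.7 CPM in the P2- MEPs and 18.1 in the P2+ MEPs, no read in the P2- CMPs and reads in 1 P2+ CMP. Cdc34, a ubiquitin-conjugating enzyme, was lower in the P2+ CMPs than in the P2+ MEPs (109 CPM in the P2+ CMPs, log2 ratio -1.31). In P2+ against P2- MEPs the same list had 3 genes higher, Mycn, Cbx2 (1.24) and Insr (1.05, 0.79 without the highest cells), and in CMPs it had only Irs2 higher, which rests on 1 cell. In P2+ CMPs against P2+ MEPs the 2 higher genes were Mycn and Ccnd1 and the 2 lower were Irs2 and Cdc34. The list medians in the 4 comparisons, in the order used above, were 0.08, -0.12, 0.14 and -0.22.

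Igf2, the fetal growth factor whose messenger gave the IGF2BP family its name, was read in few cells. It had 26, 4, 114 and 197 reads in the P2- and P2+ MEPs and the P2- and P2+ CMPs, in 1, 3, 4 and 5 cells, so that its ratios rest on few cells. H19, the noncoding RNA imprinted beside it, had 5.82, 0.824, 36.2 and 26.8 CPM, and a single cell gave between 24.7% and 61.5% of the reads of each population. Dlk1, another imprinted growth gene, had 3.23, 10.6, 17.6 and 22.4 CPM and was read in 15, 21, 18 and 36 cells at full depth. Of 11 genes of fetal growth and fetal hematopoiesis, 9 had at least 100 reads, and in the P2- CMPs over P2- MEPs Igf2 (2.87), H19 (2.64) and Dlk1 (2.44) were higher and Sox6 (-1.26) lower by 2-fold. In P2+ CMPs over P2+ MEPs Igf2 (5.42), H19 (5.03), Sox6 and Dlk1 (1.07) were higher. In P2+ over P2- MEPs Dlk1 (1.72) was higher and H19 (-2.82), Igf2 (-2.75) and Sox6 were lower, and none of the 9 passed 2-fold between the CMPs. Without the highest cells of each population, no Igf2 read was left in the P2- MEPs and no Sox6 read in the P2- CMPs. With 3 reads standing in there, the values among P2- cells were bounds, at least 5.16 for Igf2 and at most -4.38 for Sox6. Those among P2+ cells were then 4.40 for Igf2 and 5.75 for H19. The value of H19 in MEPs was then -3.80, while Igf2 in MEPs had too few reads for a ratio. Sox6, a repressor of embryonic globin, had no read in the P2+ MEPs and was read in 6, 1 and 3 cells elsewhere. The medians were -0.17, -0.30, -0.01 and -0.05.

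Among 16 genes of the partners of the IGF2BP proteins and the m6A pathway, none passed 2-fold in any of the 4 comparisons, and their log2 ratios ranged from -0.83 to 0.89. Of all genes, between 12% and 24.2% were higher and between 7.65% and 11.8% lower by 2-fold in these comparisons. The medians of the 16 were -0.01, -0.30, -0.01 and -0.29. Of 8 other high mobility group genes, Hmgn3 was higher by 2-fold in the P2+ MEPs (1.22), in the P2- CMPs (2.91) and in the P2+ CMPs against P2+ MEPs (2.02), from 2, 4, 6 and 15 cells with reads in the P2- and P2+ MEPs and the P2- and P2+ CMPs. Without the highest cells the values of Hmgn3 were 1.51, 3.72 and 2.69, and other genes overlap 15.2% of its exon bases. Hmgn2, which binds nucleosomes and was read in every cell, was higher in the P2- CMPs than in the P2- MEPs (987 against 487 CPM, 1.02), and Hmgxb4 was lower in P2+ than in the P2- CMPs (23.4 against 49.5 CPM, -1.08). The medians of this list were 0.23, 0.22, 0.18 and 0.14. Of 9 ARID3 and E2F-RB genes, 8 had at least 100 reads. E2f1, which drives entry into S phase, was higher in P2+ than in the P2- CMPs (44.3 against 21.3 CPM, 1.05, 0.67 with equal weight for every cell), E2f2 was lower in the P2+ CMPs than in the P2- CMPs (-1.18) and P2+ MEPs (-1.07), and Rbl1, a relative of the retinoblastoma protein, was higher in the P2+ CMPs than in the P2+ MEPs (64.5 against 27.8 CPM, 1.21). A single cell gave 46.5% of the E2f2 reads in the P2- CMPs, and without the highest cells the first value for E2f2 was -0.86. None of these 8 passed 2-fold in P2+ against P2- MEPs, and only Arid3b did in the P2- CMPs against P2- MEPs, with medians of -0.09, -0.46, 0.20 and 0.13.

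**Figure D5:**
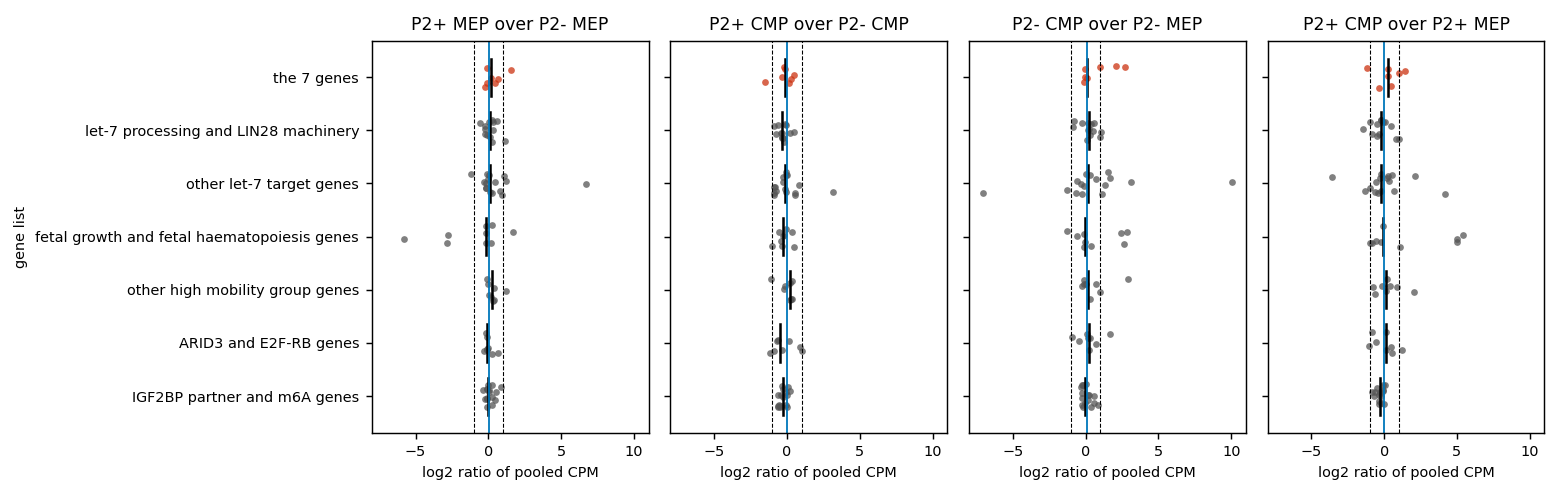
Log2 ratios of pooled CPM (x axis) of every gene with at least 100 reads in the 7 genes and in 6 related lists (y axis), in the 4 comparisons; each point is a gene, black ticks are list medians, the blue line is the median of all genes and dashed lines mark 2-fold. The medians of the 6 related lists lie between -0.46, for ARID3 and E2F-RB genes in P2+ over P2- CMPs, and 0.23, for other high mobility group genes in MEPs, and single genes such as Mycn stand farther from the blue line.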

How the data were processed

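The deposited table holds raw read counts per gene and cell (unit counts), made by the authors from paired reads trimmed with Trimmomatic 0.36, aligned to GRCm38 with STAR 2.4.2a and counted with HTSeq 0.6.1p1 per the labels, without strand or molecular identifiers. The deposited cell table gives the percent of unmapped reads. Cells with at least 250000 reads, at most 25% unmapped and at most 15% ERCC spike-in reads were kept, as in the study's methods. Reads that HTSeq called ambiguous (25.6% of uniquely mapped) or outside features (7.40%) stayed out. No doublet caller was run, since single cells were sorted into wells.

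Reads were summed per population and divided by all reads on mouse genes. Intervals are 95% exact Poisson (levels), conditional binomial (ratios) and Clopper-Pearson (shares), and PCR reads without identifiers are not independent molecules. For ratios, 3 reads stood in where a population had 0, and none was given where both had at most 3. A gene counted as past 2-fold with at least 100 reads over all cells. Thinning was without replacement. Python 3.11.15, numpy 2.4.6 and scipy 1.17.1 were used, and scripts were tested on simulated data. Exon lengths and 3′UTRs came from GENCODE vM21 (GRCm38). Named beyond the members were up to 4 genes past 2-fold per list and comparison, the paralogs, Igf2 and the 5 genes most alike, some of which are not reported here. The alternatives were equal cell weights, DESeq2-type size factors, all deposited cells, the highest cell left out, another denominator, the conflicting cell left out, and other filters, folds and thinning depths. The members and lists were chosen with earlier results of these data known.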

Additional observations from a re-analysis of the deposited data

Results flagged for a closer look

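Some of the 7 genes had P2+ over P2- ratios of pooled level of opposite sign in MEPs and CMPs. Each was beyond counting error in both gates, which leaves out the spread between cells. Igf2bp2 had a log2 ratio of 1.58 in MEPs and -0.16 in CMPs. Hmga2 had 0.45 in MEPs and -0.20 in CMPs, and Hmga1 had -0.11 in MEPs and 0.27 in CMPs. Hmga1 also had CMP over MEP ratios of opposite sign, -0.13 among P2- cells and 0.25 among P2+ cells. With 1 sample per population, the difference between these ratios was not tested. In CMPs the sign of Hmga2 depended on the summary, since its median over cells was higher in P2+ than in P2- cells (189.3 against 167.1 CPM). The median of Igf2bp2 was lower in the P2+ CMPs (58.9 against 81.4 CPM), while its share of thinned cells with a read was higher (83.3% against 77.8%). The Hmga1 values are below 0.30 in size and are uncertain, since part of its transcript sequence is not unique.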

How the results depend on the processing

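Of the 28 log2 ratios of the members, 26 kept their sign under all 6 alternative levels. The exceptions were near 0: Lin28b in P2- CMPs over P2- MEPs was -0.01 without the CMP of conflicting label, and Arid3a in P2+ over P2- CMPs was -0.0044 with equal weight for every cell. The largest move of any ratio was 0.27, for Arid3a in that comparison without the highest cells. Size factors moved the median of all genes by at most 0.09. The number of members past 2-fold stayed at 1 within MEPs and within CMPs under all changes of level and filter, and lay between 2 and 3 among P2- cells and among P2+ cells. At 1.5-fold it was 2 in P2+ over P2- MEPs, and at 4-fold it was 0 there, 0 in P2+ over P2- CMPs and 0 in P2+ CMPs over P2+ MEPs. Threshold cases aside from Arid3a were Igf2bp2 among P2+ cells, which reached 1.04 with the other denominator. Among list genes, the value nearest 0 over the alternatives fell short of 2-fold for E2f1 (0.67) and E2f2 (-0.86) in CMPs, Insr (0.79) and Zcchc11 (0.94) in MEPs, Ago3 (0.82) and Dlk1 (0.98) among P2+ cells, and Zcchc11 (0.96), Hmgn2 (0.95) and Igf1r (0.90) among P2- cells. Igf2 in P2+ over P2- MEPs had at most 3 reads in either population without the highest cells and gave no value. The cause of these shifts was not tested.

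At least 5 reads in place of 1 changed 18 of 28 shares of cells by more than their intervals, other thinning depths 2 of 28 each and no thinning 3 of 28. Without reads from replicate animals, no spread between embryos could be given. No paired analysis was possible because the cells carry numbers of their own and each population was 1 sample.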
